A study of Mus musculus with 8 samples.

Results

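The genes of the proteasome were followed in splenic B cells of 8 transgenic mice by bulk RNA-seq. They were taken as the rows whose symbol begins with Psm, a letter from a to g and a digit, and that held a count in all 8 libraries. Of 50 such symbols 48 qualified, among 14072 complete symbols of 24902 in the matrix, and all 48 passed the filter on low counts that left 13173 genes for testing. One of them, Psmc3ip, encodes a partner of the meiotic recombinases and not a proteasome subunit, so 47 genes belong to the proteasome. Psma8 and Psmb11 matched the pattern but did not hold a count in every library. Psma8, the testis form of an alpha subunit, had 5 to 27 counts in the 5 libraries that held a value. Psmb11, the catalytic subunit of thymic epithelium, had 19 to 88 counts in 7 libraries.

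By the labels 4 mice were Eµ-PRMT5, 3 were Eµ-PRMT5/TCL1 and 1 was Eµ-TCL1, of strain C57BL/6N. The study describes them as diseased mice at early removal criteria (ERC), the point at which a sick animal is taken off study. The labels name no treatment and no ages. Eµ-PRMT5 mice carry human PRMT5, an arginine methyltransferase, behind a mouse VH promoter and the IgH Eµ enhancer, which drive it in immature and mature B cells. Eµ-TCL1 mice carry the human TCL1 oncogene under the Eµ enhancer and develop a disease like chronic lymphocytic leukemia. The double transgenic Eµ-PRMT5/TCL1 mice come from crossing Eµ-PRMT5 with homozygous Eµ-TCL1 mice. The Eµ-PRMT5 colony goes back to several founders, and the title of Eµ-PRMT5 mouse 2 is the identifier of a founder, while the founder behind each other mouse is not in the labels. B cells were enriched from spleen with a pan-B isolation kit. Every mouse therefore carried at least 1 B cell transgene, and wild-type mice were not analysed here. The single Eµ-TCL1 mouse has no replicate, so a comparison with it asks whether this mouse lay outside the spread of the replicated groups. Each library has an animal identifier of its own in its title.

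The proteasome is the barrel-shaped protease that degrades ubiquitin-tagged proteins. Its 20S core stacks rings of alpha and beta subunits, and the beta subunits encoded by Psmb5, Psmb6 and Psmb7 cut the substrate. The 19S regulatory particle, made of ATPases (Psmc genes) and other subunits (Psmd genes), binds ubiquitin chains, unfolds the protein and feeds it into the core. Interferon signalling induces replacement catalytic subunits, Psmb8, Psmb9 and Psmb10, which take the places of Psmb5, Psmb6 and Psmb7 in newly built particles. Together with the 11S activator encoded by Psme1 and Psme2 they form the immunoproteasome, which yields peptides suited to MHC class I. Lymphoid cells carry much of it without stimulation.

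Library depth was 3356297 to 10252426 counts on genes, and the proteasome genes held from 0.746% (Eµ-TCL1 mouse) to 1.58% (Eµ-PRMT5 mouse 4) of the counts on complete symbols. The 8 B cell markers, among them Cd79a and Pax5, were all tested, and their summed level was 1917 to 6921 CPM (counts scaled to a common library size by TMM factors) in Eµ-PRMT5, 3620 to 8770 CPM in Eµ-PRMT5/TCL1 and 5194 CPM in the Eµ-TCL1 mouse. Eµ-PRMT5 mouse 4 stood apart. It had the deepest library, the lowest B cell sum and the highest sum of 8 markers of dividing cells, at 3737 CPM against 219 to 1687 CPM elsewhere. Of other cell types, 8 of 8 neutrophil markers were tested, with sums of 417 to 5172 CPM in Eµ-PRMT5, 637 to 8730 CPM in Eµ-PRMT5/TCL1 and 593 CPM in the Eµ-TCL1 mouse. T cell markers (5 of 8 tested) summed to 433 to 912, 697 to 1229 and 446 CPM, and macrophage markers (5 of 8) to 245 to 489, 290 to 812 and 180 CPM in the same order. Erythroid markers (6 of 8) summed to 21.5 to 381, 67.9 to 328 and 25.4 CPM, and NK markers (5 of 8) to 55.2 to 421, 114 to 135 and 38.9 CPM. The defining macrophage markers C1qa, C1qb and C1qc lacked a count in at least 1 library and were not tested, nor were Cd4 and Cd8a. The part of these cells in the levels that follow was not tested. In bulk RNA fewer expressing cells and less RNA per cell cannot be told apart.

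The proximal promoters of 41 of the 48 genes were found in RefSeq sequences of GRCm38.p6, each holding 250 bases before and 50 after the start. They were searched on both strands for 3 sequence patterns: the interferon-stimulated response element (ISRE, GAAANNGAAA), the gamma-activated site (GAS, TTCNNNGAA) and the antioxidant response element bound by NRF factors (ARE, TGACNNNGC). An ISRE match occurred in 5 of the 41 genes, a GAS match in 3 and an ARE match in 6, and of 32851 promoters of the same length 3.44%, 8.3% and 12.4% held them. Of the immunoproteasome genes Psmb8 and Psme1 held a match, while the windows of Psmb9, Psmb10 and Psme2 held none of the 3 patterns. The other 4 genes with an ISRE match were Psmb3, Psmd4, Psmd9 and Psmg4. Printed below, to show the matches, are these 2 immunoproteasome promoters and 2 of the constitutive catalytic subunits, with the matched bases in capitals. Psmb8 (chr17:34197945-34198244, plus strand) has a GAS match at bases -97 to -89 from the start, and Psme1 (chr14:55578244-55578543, plus strand) an ISRE match at bases 10 to 19, read on the opposite strand. Psmb5 (chr14:54617946-54618245, minus strand) and Psmb6 (chr11:70525107-70525406, plus strand) each have an ARE match, at bases -47 to -39 and -9 to -1. A match is a description of the letters and not evidence of binding.
Psmb8 promoter: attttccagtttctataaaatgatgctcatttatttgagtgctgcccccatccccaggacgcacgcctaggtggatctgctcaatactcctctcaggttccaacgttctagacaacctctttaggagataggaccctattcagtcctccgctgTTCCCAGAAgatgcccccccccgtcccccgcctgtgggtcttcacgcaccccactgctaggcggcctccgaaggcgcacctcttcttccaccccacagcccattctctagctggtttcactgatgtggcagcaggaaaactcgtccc
Psme1 promoter: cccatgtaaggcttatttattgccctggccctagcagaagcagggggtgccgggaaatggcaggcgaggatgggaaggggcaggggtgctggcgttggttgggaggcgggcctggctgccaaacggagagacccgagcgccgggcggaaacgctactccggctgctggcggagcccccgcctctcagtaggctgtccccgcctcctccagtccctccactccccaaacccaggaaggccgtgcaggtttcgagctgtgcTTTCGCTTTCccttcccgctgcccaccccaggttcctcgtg
Psmb5 promoter: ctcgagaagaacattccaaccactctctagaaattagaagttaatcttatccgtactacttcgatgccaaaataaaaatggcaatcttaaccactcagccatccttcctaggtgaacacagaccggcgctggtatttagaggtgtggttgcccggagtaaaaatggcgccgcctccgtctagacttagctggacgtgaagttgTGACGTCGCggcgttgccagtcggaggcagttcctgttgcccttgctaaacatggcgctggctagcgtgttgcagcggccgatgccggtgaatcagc
Psmb6 promoter: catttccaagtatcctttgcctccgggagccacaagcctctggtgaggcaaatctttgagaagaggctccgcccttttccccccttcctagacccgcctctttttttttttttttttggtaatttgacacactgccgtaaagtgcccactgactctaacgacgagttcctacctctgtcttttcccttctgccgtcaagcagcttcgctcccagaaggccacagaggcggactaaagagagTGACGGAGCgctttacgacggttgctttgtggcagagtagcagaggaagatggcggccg

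Per kilobase of the principal transcript, the constitutive subunit Psmb6 was the most abundant proteasome transcript, with a median over the 8 mice of 561 CPM per kb and a range of 385 to 949. Psma7, an alpha ring subunit, followed at 545, then Psme2 at 396 and Psmb3 and Psmb8 at 370 each. Psmb9 had a median of 202 and Psmb10 of 150 CPM per kb. At the other end Psmb7 measured 20.3 and Psme4, the large PA200 activator, 7.89 CPM per kb. The ranges of neighbours in this order overlapped. The genes of the 3 constitutive catalytic sites, which enter each core in equal number as proteins, thus spanned from 20.3 (Psmb7) over 122 (Psmb5) to 561 (Psmb6) in median CPM per kb. Counting can move these levels. Of the Psmb5 transcript 796 bases match the gene Gm3375 at 98.9% identity, and 405 exonic bases of Psmb7 overlap Nek6 on the opposite strand. Of the Psme2 transcript 82.5% matches Psme2b, and of the Psmb3 transcript 80.7% matches other genes, at 95% identity or more. Whether counting used strand is not given in the sources used here.

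**Figure D1:**
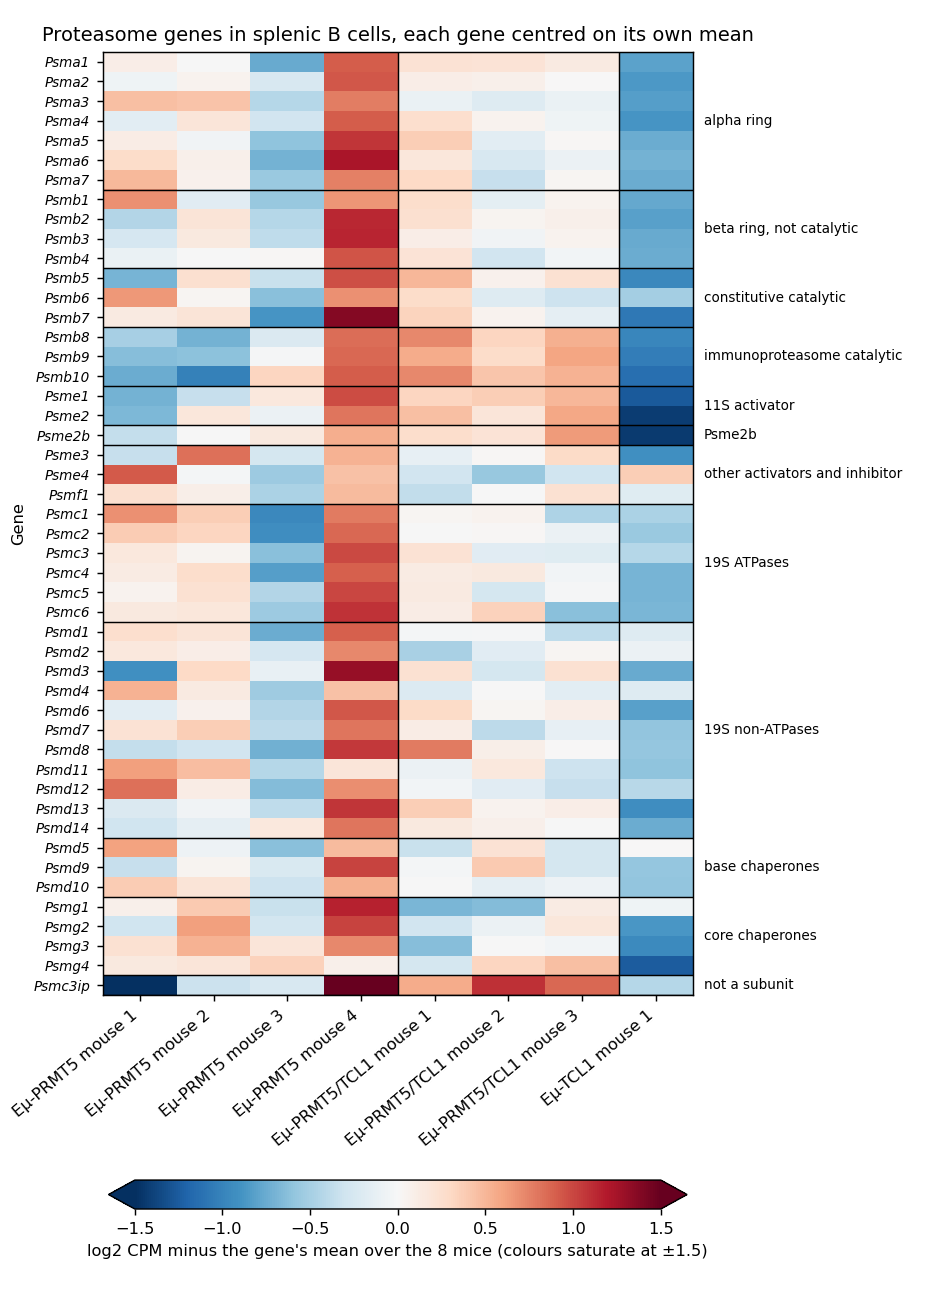
Each row is a proteasome gene and each column a mouse. Colour gives the log2 CPM of the gene minus its mean over the 8 mice, with red above and blue below that mean. Eµ-PRMT5 mouse 4 was highest in 39 of the 48 genes and the Eµ-TCL1 mouse lowest in 31, while Eµ-PRMT5 mouse 3 was low in core and 19S genes but not in Psmb10 or Psme1.

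The core and the 19S particle varied alike from mouse to mouse. The mean log2 CPM of the 14 core genes outside the immunoproteasome was 7.69, 7.70, 7.12 and 8.56 in Eµ-PRMT5 mice 1 to 4. The Eµ-PRMT5/TCL1 mice had 7.83, 7.52 and 7.59. The Eµ-TCL1 mouse had 6.81. For the 17 genes of the 19S particle it was 7.98, 8.01, 7.33 and 8.71, then 7.95, 7.83 and 7.72, and 7.30 in the Eµ-TCL1 mouse. In both classes Eµ-PRMT5 mouse 4 was highest, mouse 3 lowest of its group, and the 3 double transgenic mice lay inside the range of the Eµ-PRMT5 mice. Across the 8 libraries, the median Pearson r over pairs of core genes was 0.881 (91 pairs), over pairs of 19S genes 0.765 (136 pairs) and over core with 19S pairs 0.812 (238 pairs). Over all pairs of tested genes the median was -0.0005. These coefficients describe 8 shared libraries and carry no test.

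The immunoproteasome genes Psmb8, Psmb9, Psmb10, Psme1 and Psme2 followed each other more closely than they followed the core. The median r over their 10 pairs was 0.935, with a lowest value of 0.793. With core genes their median r was 0.652 (70 pairs) and with 19S genes 0.434 (85 pairs). Their mean log2 CPM was 7.53, 7.68, 8.22 and 9.06 in Eµ-PRMT5 mice 1 to 4. In the Eµ-PRMT5/TCL1 mice it was 8.73, 8.49 and 8.73 and in the Eµ-TCL1 mouse 7.01. Eµ-PRMT5 mouse 3, lowest of its group in core and 19S, was second highest of its group here, and all 3 double transgenic mice lay above Eµ-PRMT5 mice 1 to 3 and below mouse 4. The spread was 0.69 (SD, n = 4) in Eµ-PRMT5 and 0.14 (SD, n = 3) in Eµ-PRMT5/TCL1 mice.

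**Figure D2:**
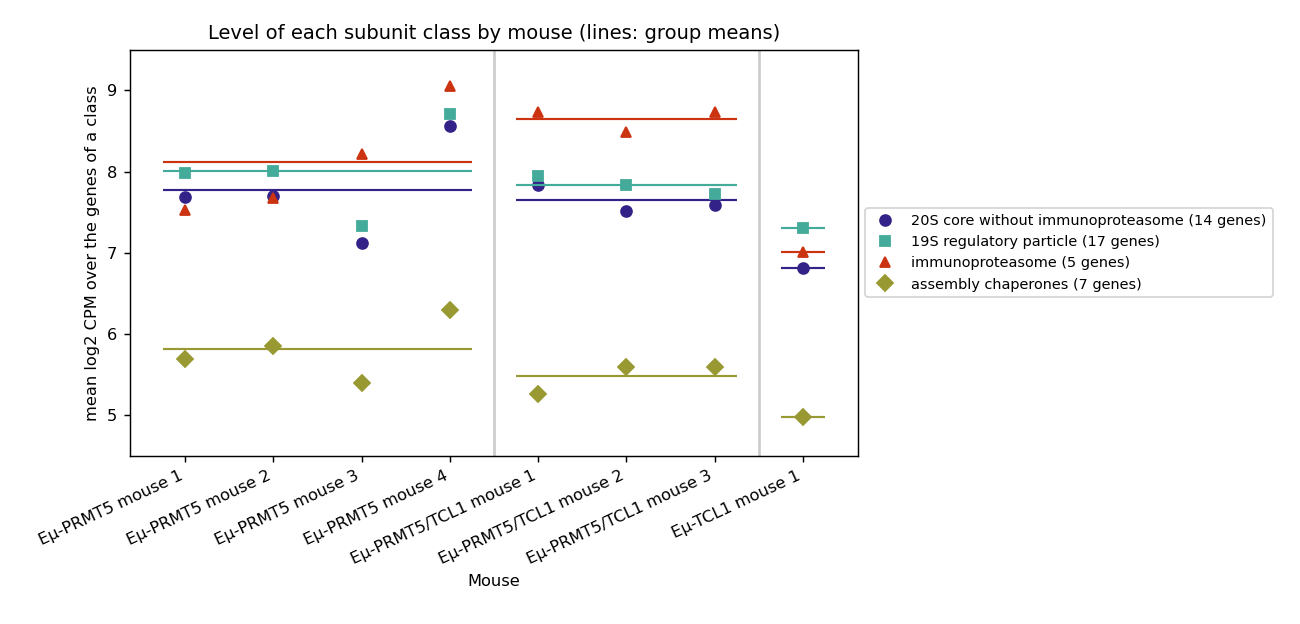
Mean log2 CPM over the genes of each class (y axis) in each mouse (x axis). Symbols are class means in 1 mouse and lines are group means. Since CPM are not corrected for transcript length, the order of classes within a mouse does not give which was more abundant. The immunoproteasome mean of the 3 Eµ-PRMT5/TCL1 mice was 8.49 to 8.73, above their core means of 7.52 to 7.83, as it also was in Eµ-PRMT5 mice 3 and 4 and the Eµ-TCL1 mouse, while in Eµ-PRMT5 mice 1 and 2 it lay below (7.53 against 7.69 and 7.68 against 7.70).

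The first comparison set the double transgenic mice against those with PRMT5 alone. The study reports a much longer median survival for Eµ-PRMT5 than for Eµ-PRMT5/TCL1 mice, and the ages of the mice used here are not in the labels. Genotype and age at removal therefore cannot be told apart. With calls made at an adjusted p under 0.05 combined with a fold over 4, no proteasome gene was called in Eµ-PRMT5/TCL1 against Eµ-PRMT5 mice, and 0 of 48 had an unadjusted p under 0.05 (edgeR's quasi-likelihood test with Benjamini-Hochberg adjustment, smallest adjusted p 1). Over all tested genes 0.0% were called, while an unadjusted p under 0.05 was reached by 0.957% in the higher and 1.21% in the lower direction, so few genes of any kind stood out. The fold change was negative for 37 of 48 genes and positive for 11, with a median log2 fold change of -0.26 beside -0.093 over all tested genes. By class the median was -0.22 for the 14 core genes (12 negative), -0.32 for the 17 genes of the 19S particle (16 negative) and -0.30 for the 7 assembly chaperones (6 negative). It was 0.45 for the 5 immunoproteasome genes, of which 5 were positive. Without Eµ-PRMT5 mouse 4, 26 of 48 fold changes were positive, with a median of 0.15 in the core (4 of 14 negative) and -0.012 in the 19S particle (9 of 17 negative). The chaperones then had a median of -0.16, still with 6 of 7 negative, and the immunoproteasome one of 0.88, still with 5 of 5 positive. Mouse 4 was the highest library in all 5 immunoproteasome genes, so leaving it out raises their fold changes. The immunoproteasome median was 0.28 without Eµ-PRMT5 mouse 1, 0.27 without mouse 2 and 0.43 without mouse 3. It was 0.39 to 0.54 with any 1 double transgenic mouse left out.

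Psmb8 (chromosome 17, 34197721 to 34201454, GRCm38), which replaces Psmb5 and cuts after hydrophobic residues, measured 404, 351, 491 and 1020 CPM in Eµ-PRMT5 mice 1 to 4. It measured 945, 713 and 825 CPM in the Eµ-PRMT5/TCL1 mice, while the Eµ-TCL1 mouse had 290 CPM. The double transgenic mice all lay above 3 of the 4 Eµ-PRMT5 mice and below mouse 4, so the groups overlapped. The means were 828 ± 116 CPM (SD, n = 3) and 566 ± 308 CPM (SD, n = 4), a log2 fold change of 0.55 with a standard error of 0.42. Of its exonic bases 498 overlap Gm20496 on the opposite strand. Without Eµ-PRMT5 mouse 4 the log2 fold change was 1.00 (standard error 0.32, unadjusted p = 0.00993, adjusted p = 0.691 in edgeR's test).

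Psmb9 (chromosome 17, 34181987 to 34187764), which replaces Psmb6, lies head to head with the peptide transporter gene Tap1, whose exons share 212 bases with it on the other strand. It measured 160, 162, 246 and 451 CPM in Eµ-PRMT5 mice 1 to 4, 366, 301 and 375 CPM in Eµ-PRMT5/TCL1 mice, while the Eµ-TCL1 mouse had 121 CPM. The order was that of Psmb8 again, with mouse 4 on top and the double transgenic mice above the other 3. The log2 fold change was 0.45 (standard error 0.41), and 0.88 (standard error 0.32, unadjusted p = 0.019, adjusted p = 0.768 in edgeR's test) without mouse 4.

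Psmb10 (chromosome 8, 105935735 to 105938444), which replaces Psmb7, measured 90.7, 75.2, 191 and 286 CPM in Eµ-PRMT5 mice 1 to 4, 250, 203 and 219 CPM in Eµ-PRMT5/TCL1 mice, while the Eµ-TCL1 mouse had 69.5 CPM. Here Eµ-PRMT5 mice split, with mice 1 and 2 near the Eµ-TCL1 mouse and mice 3 and 4 near the double transgenic ones. The log2 fold change was 0.48 (standard error 0.45), and 0.91 (standard error 0.38, unadjusted p = 0.0353, adjusted p = 0.824 in edgeR's test) without mouse 4.

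Of the 11S activator, which opens the gate of the core, Psme1 (chromosome 14, 55578123 to 55581529) measured 172, 222, 314 and 554 CPM in Eµ-PRMT5 mice 1 to 4 and 352, 363 and 399 CPM in Eµ-PRMT5/TCL1 mice. Psme2 (chromosome 14, 55587441 to 55591113), its partner, measured 211, 378, 318 and 587 CPM and 461, 383 and 503 CPM. Mouse 4 was again above, and mice 1 to 3 below, every double transgenic mouse, and the log2 fold changes were 0.23 (standard error 0.41) and 0.26 (standard error 0.39). Without mouse 4 they were 0.66 and 0.57, with unadjusted p of 0.0702 and 0.115. Psme2b, a single-exon gene on chromosome 11 (48945354 to 48946190), matches the Psme2 transcript at 99.4% identity over 794 bases, so how reads were split between both is uncertain. It measured 90.7, 116, 129 and 170 CPM in Eµ-PRMT5 mice 1 to 4, and 140, 134 and 182 CPM in the double transgenic mice.

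**Figure D3:**
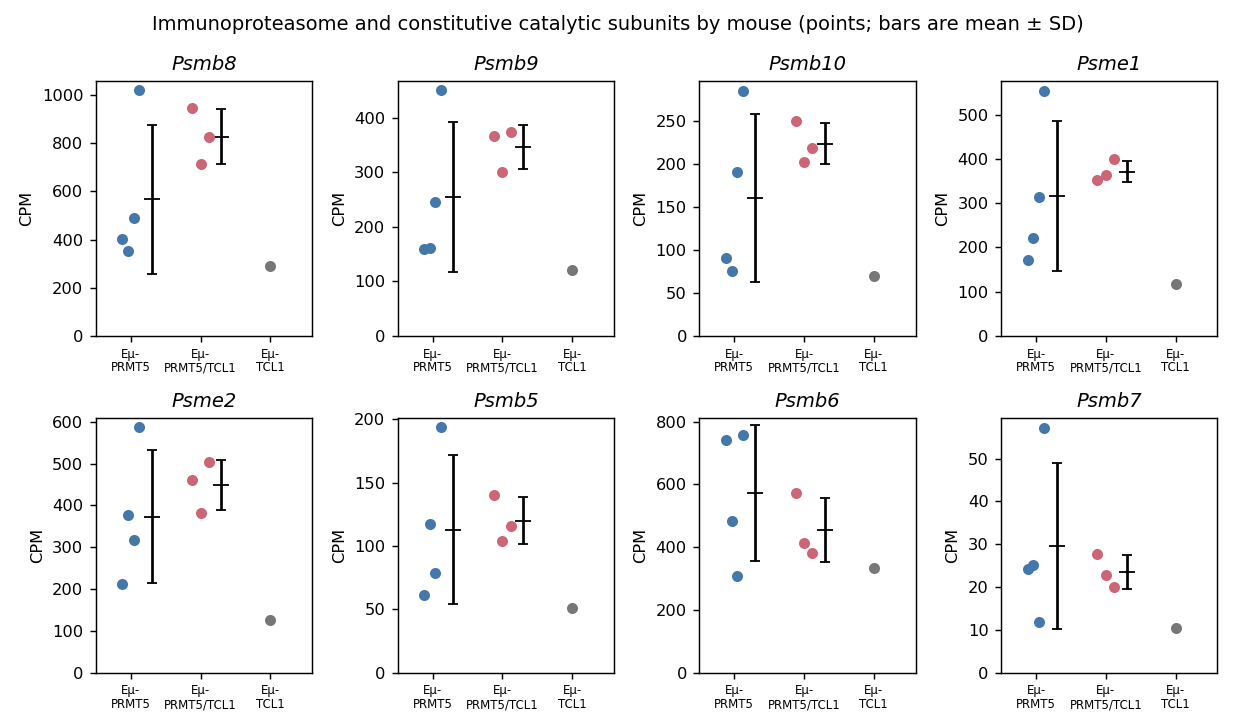
CPM (y axis, from 0) of the 5 immunoproteasome genes and the 3 constitutive catalytic subunits in each mouse, by genotype. Points are mice and bars are the mean ± SD of the groups with replicates. For Psmb8 the 3 Eµ-PRMT5/TCL1 mice sit at 713 to 945 CPM, above Eµ-PRMT5 mice 1 to 3 and below mouse 4 at 1020 CPM, and the Eµ-TCL1 mouse sits at 290 CPM.

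The constitutive subunits did not show that order. Psmb5 (chromosome 14, 54614119 to 54618022), the chymotrypsin-like subunit and the chief target of bortezomib, measured 61.3, 117, 78.6 and 194 CPM in Eµ-PRMT5 mice 1 to 4, 140, 104 and 116 CPM in Eµ-PRMT5/TCL1 mice, while the Eµ-TCL1 mouse had 50.8 CPM. Psmb6 (chromosome 11, 70525367 to 70527858), the caspase-like subunit, measured 741, 482, 307 and 757 CPM, then 572, 413 and 382 CPM, and 332 CPM. Psmb7 (chromosome 2, 38588036 to 38644087), the trypsin-like subunit, measured 24.2, 25.2, 11.9 and 57.2 CPM, then 27.7, 22.9 and 20 CPM, and 10.5 CPM. The double transgenic values lay inside the Eµ-PRMT5 range for all 3 genes, and the log2 fold changes were 0.085, -0.33 and -0.34 with standard errors of 0.40 to 0.51. Without mouse 4 the change of Psmb7 was 0.20, and without mouse 1 that of Psmb5 was -0.11.

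Ratios within a library do not depend on scaling between libraries. The summed CPM of Psmb8, Psmb9 and Psmb10 over that of Psmb5, Psmb6 and Psmb7 was 0.792, 0.940, 2.33 and 1.74 in Eµ-PRMT5 mice 1 to 4. It was 2.11, 2.25 and 2.74 in Eµ-PRMT5/TCL1 mice and 1.22 in the Eµ-TCL1 mouse. In all 3 double transgenic mice the summed immunoproteasome CPM was at least 2.11 times the constitutive sum. In Eµ-PRMT5 mice 1 and 2 the constitutive sum was larger, and mouse 3 lay among the double transgenic mice. CPM are not corrected for transcript length, which is 1628, 1352 and 1311 bases for Psmb8, Psmb9 and Psmb10. For Psmb5, Psmb6 and Psmb7 it is 899, 798 and 1160 bases. The ratio thus compares mice and does not give which transcripts were more abundant. Psmb6 made up most of the constitutive sum, as with 741 of 826 CPM in Eµ-PRMT5 mouse 1. On the log2 scale the means were 1.24 ± 0.20 (SD, n = 3) and 0.40 ± 0.73 (SD, n = 4), a difference of 0.84 that was 0.59 to 1.11 with any 1 mouse left out. No test was made of this ratio.

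The 3 pairs differed in their spread. The log2 ratio of Psmb8 to Psmb5 was 2.71, 1.58, 2.64 and 2.39 in Eµ-PRMT5 mice 1 to 4, against 2.76, 2.78 and 2.83 in the double transgenic mice, groups that did not overlap but whose nearest mice differed little. For Psmb9 to Psmb6 it was -2.21, -1.57, -0.32 and -0.75, against -0.64, -0.46 and -0.025. For Psmb10 to Psmb7 it was 1.89, 1.57, 3.97 and 2.31, against 3.16, 3.13 and 3.43. In the last 2 pairs Eµ-PRMT5 mouse 3 was above at least 1 double transgenic mouse, and in the Eµ-TCL1 mouse the 3 ratios were 2.50, -1.46 and 2.68. The immunoproteasome subunits Psmb8 and Psmb9 kept to each other instead: their log2 ratio was between 0.99 and 1.37 in all 8 mice.

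**Figure D4:**
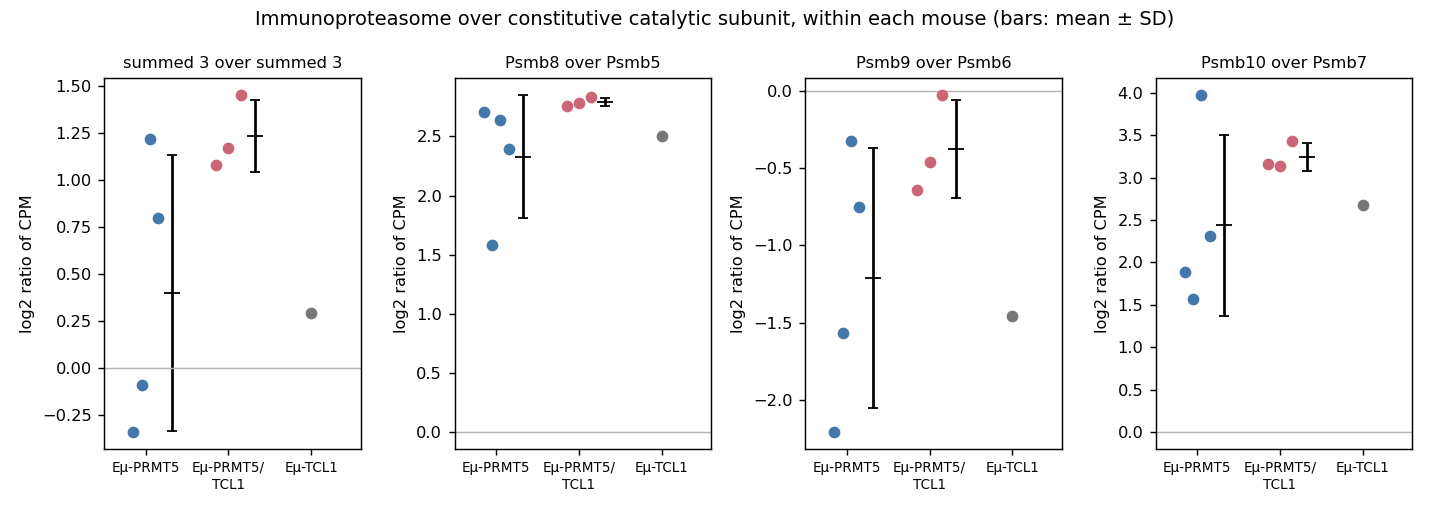
Log2 ratio of immunoproteasome to constitutive catalytic subunits within each mouse (y axis, log2 ratio of CPM) by genotype, for the summed CPM of 3 over 3 genes and for the 3 pairs. Points are mice and bars are mean ± SD. The summed ratio of the Eµ-PRMT5/TCL1 mice was 1.08 to 1.45 and that of Eµ-PRMT5 mice -0.34 to 1.22, with mouse 3 among the double transgenic mice.

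With all mice in the fit, no gene of the other classes reached an unadjusted p under 0.05 in Eµ-PRMT5/TCL1 against Eµ-PRMT5 either. In the alpha ring, which gates the core, Psma1 measured 279, 261, 155 and 491 CPM in Eµ-PRMT5 mice 1 to 4 and 303, 301 and 286 CPM in Eµ-PRMT5/TCL1 mice. Psma3, at the lower end of the ring, measured 337, 333, 184 and 420 CPM, against 231, 217 and 230 CPM. The double transgenic values lay inside the Eµ-PRMT5 range for both genes, with log2 fold changes of 0.0012 (standard error 0.39) and -0.50 (standard error 0.35). Of the beta subunits without catalytic activity, Psmb2 measured 188, 290, 189 and 555 CPM, against 301, 262 and 268 CPM. Psmb4 measured 89.5, 95.8, 97.1 and 185 CPM, against 111, 78.9 and 93.1 CPM, with mouse 4 far above every other mouse in both genes. Their log2 fold changes were -0.14 and -0.31 (standard errors 0.42 and 0.35), and 0.32 and 0.0058 without mouse 4.

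The ATPases of the 19S base had 6 of 6 negative fold changes, from Psmc4 at -0.16 (standard error 0.40) to Psmc1 at -0.47 (standard error 0.43). Psmc1 measured 525, 422, 167 and 564 CPM in Eµ-PRMT5 mice 1 to 4 and 334, 339 and 238 CPM in the double transgenic mice. Of its transcript 82.0% matches other genes at 95% identity or more. Psmc4 measured 332, 366, 171 and 565 CPM, against 332, 336 and 295 CPM. Eµ-PRMT5 mouse 3 was lowest of all 8 mice in both genes, and the groups overlapped. Among the other 19S subunits Psmd12, a lid scaffold, was lowest in fold change at -0.53 (standard error 0.39) and Psmd8, another lid subunit, highest at 0.23 (standard error 0.46). Psmd8 measured 239, 250, 186 and 640 CPM, against 524, 325 and 308 CPM, so that its double transgenic mice were all above Eµ-PRMT5 mice 1 to 3. Psmd12 measured 339, 207, 122 and 310 CPM, against 187, 170 and 151 CPM.

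The assembly chaperones hold precursors of the particle and are absent from the finished one. Psmg3, a core chaperone, was the 1 proteasome gene whose groups did not overlap, with 22.1, 27.2, 21.4 and 31.1 CPM in Eµ-PRMT5 mice 1 to 4 and 12.1, 18.9 and 18.4 CPM in Eµ-PRMT5/TCL1 mice. All double transgenic mice lay below all Eµ-PRMT5 mice, as in 1.59% of tested genes, while 1.35% lay all above and 0 of 48 proteasome genes did. Its log2 fold change was -0.63 (standard error 0.41, unadjusted p = 0.149 in edgeR's test), and 280 of its exonic bases overlap Gm26938 on the same strand. Psmg1, which pairs with Psmg2 to build the alpha ring, measured 55.2, 68.7, 41.5 and 117 CPM, against 32.6, 33.5 and 57.2 CPM. It had the lowest fold change of all 48 genes at -0.78 (standard error 0.42), though the double transgenic mouse 3 lay above Eµ-PRMT5 mice 1 and 3. Psmg4, the partner of Psmg3, measured 27.6, 28.2, 31.7 and 26.3 CPM, against 20.7, 31.2 and 34.0 CPM, a log2 fold change of 0.0087 (standard error 0.37). The base chaperones Psmd9 and Psmd10 (gankyrin) were at -0.17 and -0.30 (standard errors 0.40 and 0.32). Psmd9 measured 38.6, 50.3, 41.7 and 98.5 CPM, against 47.7, 64.3 and 40.6 CPM. Of its exonic bases 1849 overlap Gm26745 on the opposite strand. Psmd10 measured 89.5, 78.4, 55.4 and 98.8 CPM, against 68.0, 62.6 and 65.0 CPM.

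Of the remaining regulators, Psme4 measured 108, 55.9, 39.0 and 77.0 CPM in Eµ-PRMT5 mice 1 to 4 and 46.6, 38.3 and 46.3 CPM in the double transgenic mice, a log2 fold change of -0.68 (standard error 0.39). Eµ-PRMT5 mouse 3 lay with the double transgenic mice. Psmf1, an inhibitor of the core also called PI31, measured 115, 104, 70.2 and 136 CPM, against 75.7, 97.1 and 114 CPM (log2 fold change -0.15, standard error 0.33). Psmc3ip, the recombination factor, had 4 counts (0.812 CPM) in Eµ-PRMT5 mouse 1, then 9.02, 9.57 and 54.9 CPM in mice 2 to 4. The double transgenic mice had 16.6, 24.2 and 20.6 CPM. Its log2 fold change of 0.13 had a standard error of 0.89, and 385 of its exonic bases overlap Mlx on the opposite strand.

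Leaving out Eµ-PRMT5 mouse 4, the library with the highest sum of dividing-cell markers, gave 5 of 48 genes higher at an unadjusted p under 0.05, where 2.98% of 13156 tested genes were higher and 2.8% lower. They were Psmb8, Psmb9, Psmb10, Psmd8 and Psmc3ip, with log2 fold changes of 1.00, 0.88, 0.91, 0.78 and 1.66 and adjusted p from 0.691 to 0.84 in edgeR's test, so none passed the threshold. Leaving out mouse 3 instead gave 0 higher and 5 lower, namely Psma3, Psmc1, Psmd12, Psme4 and Psmg1 at -0.69 to -0.97, where 3.24% of tested genes were higher and 2.65% lower. Which genes stood out thus depended on which of these mice was kept. The titles of mice 3 and 4 carry mouse numbers that the study also uses in its histology. Under the number of mouse 3 it describes large anaplastic lymphocytes with histiocytes, and under that of mouse 4 sheets of small lymphocytes. The part of this difference in the values was not tested.

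**Figure D5:**
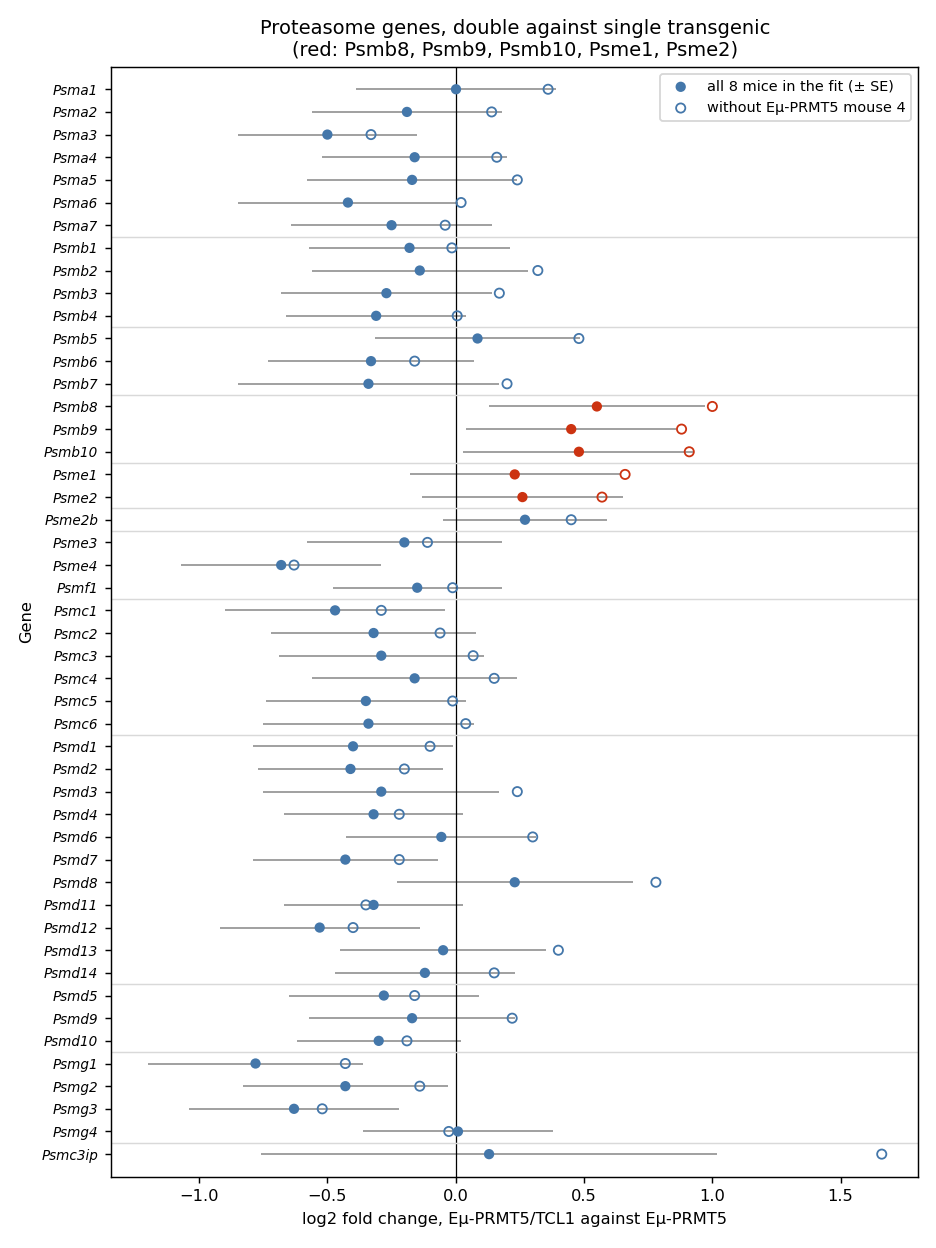
Log2 fold change of each proteasome gene (x axis) in Eµ-PRMT5/TCL1 against Eµ-PRMT5 mice, grouped by class in rows. Filled points with bars are the estimate ± SE from all 8 mice and open points the estimate without Eµ-PRMT5 mouse 4. The 5 red immunoproteasome genes lie at 0.23 to 0.55 and move to 0.57 to 1.00, while 16 of 17 genes of the 19S particle lie below 0 and 9 of 17 without that mouse. Without Eµ-PRMT5 mouse 1 or mouse 2 instead (not drawn), the median of the red genes was 0.28 or 0.27.

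The Eµ-TCL1 mouse had the lowest class mean in the core, the 19S particle, the immunoproteasome and the chaperones, though in the 19S particle by 7.30 to 7.33 in Eµ-PRMT5 mouse 3. It lay below the other 7 libraries in 31 of 48 genes, where 14.2% of all tested genes did so, and in 5 of 5 immunoproteasome, 12 of 14 core and 7 of 17 genes of the 19S particle, where Eµ-PRMT5 mouse 3 was lowest in 8. With scaling by library size alone the count was 26 of 48 beside 8.15% of all genes. Eµ-PRMT5 mouse 4 was at the other end, above the other 7 libraries in 39 of 48 genes beside 20.1% of all tested genes. Whether the Eµ-TCL1 library, the shallowest of the 8, stands for its genotype cannot be told from 1 mouse.

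In Eµ-PRMT5 against Eµ-TCL1 no proteasome gene was called, as no gene of the 13173 was (0.0%), and the smallest adjusted p of a proteasome gene was 0.709 in edgeR's test. The fold change was positive for 47 of 48 genes, with a median log2 fold change of 1.01 beside 0.042 over all tested genes. Of the 48 genes 3 were higher and 0 lower with an unadjusted p under 0.05, beside 1.96% higher and 4.82% lower over all tested genes. Without Eµ-PRMT5 mouse 1 the count higher was 12, beside 594 of 13170 tested genes. Without mouse 3 it was 16, beside 510 of 13101, and with DESeq2 it was 11, beside 643 of 13754. With any 1 mouse left out it ranged from 2 to 16. In Eµ-PRMT5/TCL1 against the same mouse the counts were 44 positive of 48 with a median of 0.78 beside -0.073, and again 0.0% of genes were called. At an unadjusted p under 0.05, 6 of 48 were higher and 0 lower, beside 1.75% and 4.33% of all tested genes, and the smallest adjusted p was 0.778. Without Eµ-PRMT5/TCL1 mouse 1 the count higher was 3, beside 143 of 13168 tested genes. It was 2 without mouse 2, beside 150 of 13164, and 2 without mouse 3, beside 204 of 13160. Both comparisons use the same Eµ-TCL1 library and their values are given side by side only for that reason.

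By class, the core stood at a median log2 fold change of 1.07 in Eµ-PRMT5 and 0.83 in Eµ-PRMT5/TCL1 against the Eµ-TCL1 mouse, with 14 of 14 positive in both. The 19S particle stood at 0.87 and 0.54, and the chaperones at 0.83 and 0.64. The immunoproteasome stood at 1.21 and 1.66, with 5 of 5 positive in both. Leaving out Eµ-PRMT5 mouse 4 brought the medians of Eµ-PRMT5 against the Eµ-TCL1 mouse to 0.74 for the core and 0.63 for the 19S particle. The immunoproteasome median came to 0.77. The fold changes of Eµ-PRMT5/TCL1 against the Eµ-TCL1 mouse do not draw on the levels of mouse 4, so leaving it out says nothing about them.

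The genes past an unadjusted p of 0.05 were Psme2, Psme2b and Psmg4 in both comparisons, and Psme1, Psmb9 and Psmb10 in that of Eµ-PRMT5/TCL1. Of the immunoproteasome these were 1 of 3 and 4 of 6 genes, and without Eµ-PRMT5/TCL1 mouse 2 or mouse 3 the latter comparison kept Psme2 and Psme2b. Psme2 measured 125 CPM in the Eµ-TCL1 mouse, where the next lowest value was 211 CPM, and its log2 fold change was 1.58 (standard error 0.64, unadjusted p = 0.0286 in edgeR's test) for Eµ-PRMT5 and 1.85 (standard error 0.66, unadjusted p = 0.0161) for Eµ-PRMT5/TCL1. Psme2b, at 43.0 CPM in that mouse, gave 1.55 and 1.82 (unadjusted p of 0.0133 and 0.00653), with the reads it may share with Psme2. Psmg4, at 10.5 CPM against 20.7 to 34.0 CPM elsewhere, gave 1.43 and 1.44 (unadjusted p of 0.0372 and 0.0394). Psme1, at 118 CPM, gave 1.42 (standard error 0.67) and 1.66 (standard error 0.70), and only the latter had an unadjusted p under 0.05, at 0.0347. Psmb9 gave 1.08 for Eµ-PRMT5 and 1.53 (unadjusted p = 0.0453) for Eµ-PRMT5/TCL1, and Psmb10 gave 1.21 and 1.69 (unadjusted p = 0.0456). Psmb8, at 0.97 and 1.51, had an unadjusted p over 0.05 in both (0.173 and 0.0536). Whether the 2 genotypes differed in these changes is the comparison between them above, in which none of these genes had an unadjusted p under 0.05.

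Genes that act with the proteasome were taken from 4 further lists. Of 9 genes that regulate or work with the immunoproteasome, 0 reached an unadjusted p under 0.05 for Eµ-PRMT5/TCL1 over Eµ-PRMT5, and their median log2 fold change was 0.33. Against the Eµ-TCL1 mouse 2 were higher in Eµ-PRMT5 and 3 in Eµ-PRMT5/TCL1, and 0 lower, where 1.96% and 1.75% of all tested genes were higher and 4.82% and 4.33% lower. The medians of the list were 0.67 and 0.89. Over all tested genes the medians were -0.093 between the replicated groups and 0.042 and -0.073 against the Eµ-TCL1 mouse, for this and the other lists. Irf1, the interferon regulatory factor that induces Psmb9, measured 155, 177, 121 and 248 CPM in Eµ-PRMT5 mice 1 to 4, 211, 176 and 211 CPM in Eµ-PRMT5/TCL1 mice, while the Eµ-TCL1 mouse had 54.3 CPM. The Eµ-TCL1 mouse lay far below the rest, with log2 fold changes of 1.69 and 1.87 (unadjusted p of 0.0101 and 0.00652, edgeR). Nlrc5, the activator of MHC class I genes, measured 116, 145, 171 and 172 CPM, then 139, 203 and 102 CPM, and 61.1 CPM, with changes of 1.30 and 1.28 (unadjusted p of 0.0336 and 0.0399). B2m, the light chain of MHC class I, measured 333, 487, 576 and 994 CPM, then 854, 705 and 703 CPM, and 235 CPM, with changes of 1.35 and 1.68 (unadjusted p of 0.0643 and 0.0312).

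Of 12 symbols for further subunits and associated factors 8 were tested, and 0 had an unadjusted p under 0.05 in any comparison. They had medians of -0.30, 0.89 and 0.60 in the 3 comparisons in the order above. Of 5 regulators of constitutive proteasome genes, among them Nfe2l1, which restores proteasome transcription when the particle is inhibited, 4 were tested, with medians of 0.21, -0.047 and -0.080 and 0 at an unadjusted p under 0.05. Of 14 symbols for ubiquitin and its shuttles 13 were tested, and 1, Rps27a, had an unadjusted p under 0.05. This fusion gene of ubiquitin and a ribosomal protein measured 86.1, 190, 229 and 493 CPM in Eµ-PRMT5 mice 1 to 4, 221, 250 and 211 CPM in Eµ-PRMT5/TCL1 mice, while the Eµ-TCL1 mouse had 70.0 CPM, with a log2 fold change of 1.83 (standard error 0.81, unadjusted p = 0.0436) for Eµ-PRMT5 against the latter.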

How the data were processed

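Bulk RNA-seq of splenic B cells, isolated with a pan-B kit, was analysed for 8 mice grouped by the genotype in their labels. The deposited matrix holds raw counts by gene symbol in 1 column per mouse, which the authors neither normalized nor pooled. The submitters' processing notes name GRCm38, Subread, featureCounts and DESeq2 1.20.0. The labels describe a stranded mRNA kit, and the study's methods a low-input preamplification kit and the CLEAR workflow. Whether counting used strand is not given in the sources used here, and neither is what NA stands for in 36919 entries. Only symbols with a count in all 8 libraries were used, and 26 rows bearing a date in place of a symbol were kept as written.

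Counts were scaled by TMM factors, filtered by group with filterByExpr and tested in 1 model over the 3 groups with the quasi-likelihood test of edgeR 4.0.16 (R 4.3.3), with Benjamini-Hochberg adjustment over 13173 genes and thresholds of adjusted p under 0.05 and fold change over 4. The biological coefficient of variation was 0.483. CPM are TMM-scaled, and log2 CPM used a prior count of 2. Standard errors are the log2 fold change divided by the root of the test's F. The code was first tested on simulated data. Replicates were not duplicates, with a chi-square per degree of freedom of 35.8 to 175 between mice of a group. Depth of 3356297 to 10252426 counts makes counting error small for most proteasome genes. PCR reads without molecular identifiers are not independent molecules.

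The proteasome genes and the gene lists were chosen with earlier results of these data known. Values in every mouse are given for the immunoproteasome genes and Psmb5 to Psmb7, for each gene with an unadjusted p under 0.05 in any comparison or with groups that do not overlap, and for the highest and lowest log2 fold change of each class. Class and list medians and ratios carry no test. Gene positions, exon overlaps and principal transcripts are from GENCODE vM21 (GRCm38), near-identical transcripts (at least 95% identity over 150 bases) from BLAST 2.17.0, and promoters from RefSeq (GRCm38.p6). Alternatives were DESeq2 1.42.0, other scaling, filters and prior counts, NA counted as 0, only the 2 groups compared, a replicate block and each mouse left out.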

Additional observations from a re-analysis of the deposited data

Results flagged for a closer look

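In 56 values examined over the 4 Eµ-PRMT5 mice, 4 had a mouse far from the other 3 by Dixon's criterion, the gap to the nearest value over the range, where chance gives about 1 in 20, or 2.8. All 4 were Eµ-PRMT5 mouse 4. Psmb4 was 185 CPM there against 89.5 to 97.1 CPM in the others. Psmd8 was 640 CPM against 186 to 250 CPM, Psmd13 382 CPM against 139 to 175 CPM, and Psmc3ip 54.9 CPM against 0.812 to 9.57 CPM. This mouse also had the deepest library, the highest sum of dividing-cell markers and the lowest sum of B cell markers, and their part in these values was not tested.

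Outside the complete symbols, Psmb11, the subunit of the thymoproteasome, reached 88 counts, with 19 or more in each of the 7 libraries that held a value. Psma8, the testis alpha subunit, reached 27 counts, with 5 or more in each of 5 libraries.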

How the results depend on the processing

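No proteasome gene passed both thresholds in any comparison under any setting run. Other settings gave 659 log2 fold changes, for 25 named genes in Eµ-PRMT5/TCL1 against Eµ-PRMT5 and for 10 of them in each comparison with the Eµ-TCL1 mouse. Of these 624 neither changed sign nor crossed the threshold, and 35 changed sign, in 10 genes and the first comparison. Genes not among the 10 followed against the Eµ-TCL1 mouse could also change sign there. Psmc3ip did so in Eµ-PRMT5 against Eµ-TCL1, from 1.16 to -0.37 without Eµ-PRMT5 mouse 4. The cause was not tested.

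Psma1 became -0.018 with DESeq2, -0.023 with missing values counted as 0 and -0.00047 with no filter. The labels number the mice, but same-numbered mice had correlations of -0.0206, 0.154 and 0.16, so the numbers were not taken as pairs. With the replicate block on 6 mice, and with the same 6 mice without it, Psmb2 was 0.34 and 0.31, Psmb7 0.26 and 0.20, Psmc4 0.22 and 0.15, Psmd9 0.20 and 0.22 and Psmg4 -0.059 and -0.031, while Psmb4 was 0.0029 without it. In each of these 2 fits 5 of the 48 genes, Psmc3ip among them, were higher at an unadjusted p under 0.05. Both fits leave out Eµ-PRMT5 mouse 4, and these genes are the same 5 as without that mouse above. The fits therefore repeat that omission. The block left 495 of 12550 tested genes higher and 331 lower at that p, against 374 and 368 of 12550 for the same mice without it, and called 0.

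With each mouse left out in turn, the log2 fold change ranged from -0.21 to 0.36 for Psma1, -0.32 to 0.32 for Psmb2, -0.44 to 0.0058 for Psmb4, -0.11 to 0.48 for Psmb5, -0.60 to 0.20 for Psmb7, -0.27 to 1.66 for Psmc3ip, -0.39 to 0.15 for Psmc4, -0.057 to 0.78 for Psmd8, -0.38 to 0.22 for Psmd9 and -0.13 to 0.20 for Psmg4. In Eµ-PRMT5/TCL1 against Eµ-PRMT5 the count at an unadjusted p under 0.05 ranged from 0 to 5 higher and 0 to 5 lower. Over all tested genes it ranged from 77 to 424 higher and 66 to 368 lower. In Eµ-PRMT5 against Eµ-TCL1 it ranged from 2 to 16 higher, beside 155 to 594 of all tested genes. In Eµ-PRMT5/TCL1 against Eµ-TCL1 it ranged from 2 to 9 higher, beside 143 to 475, and the median from 0.70 to 0.90.

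The next counts are of genes higher than the Eµ-TCL1 mouse at an unadjusted p under 0.05. In Eµ-PRMT5 the count was 11 with DESeq2, beside 643 of 13754 tested genes. With missing values counted as 0 it was 6, beside 487 of 19814. In Eµ-PRMT5/TCL1 it was 3 with scaling by library size only, beside 137 of 13173. The median log2 fold change of the latter comparison was 0.87 with DESeq2, 0.55 with library size only, 1.07 with missing values counted as 0 and 0.69 with upper-quartile factors, and that of the immunoproteasome was 1.43 with library size only and 1.95 with missing values counted as 0. With library size only the class levels of that comparison differed by 0.62 in the core, 0.31 in the 19S particle, 1.41 in the immunoproteasome and 0.29 in the chaperones. The immunoproteasome ratio was also compared between Eµ-PRMT5/TCL1 mice and the Eµ-TCL1 mouse. By summed CPM the log2 ratios were 1.24 (mean) and 0.29. The difference was 0.64 as the mean of the 3 log2 ratios, and 0.64 and 0.65 with prior counts of 0.5 and 5. The single Eµ-TCL1 mouse limits both comparisons with it.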
